A study of Mus musculus with 6 samples.

Results

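The semaphorins, plexins and neuropilins are a ligand and receptor system of 31 genes among the 55418 gene symbols measured here. They were chosen by symbol alone and comprise 20 semaphorins of classes 3 to 7, 9 plexins and 2 neuropilins. Polyadenylated RNA was sequenced from the mouse line MOC2, an oral squamous carcinoma that carries no papillomavirus. The 3 EphA4 knockout libraries come from 1 CRISPR clone, named H3, and the 3 Control CRISPR libraries from cells carrying a control edit. Both were grown in the same medium with serum, EGF, hydrocortisone and insulin, were untreated, and carry 1 batch label. Nothing in the labels tells whether samples sharing a group were grown as separate cultures, so p-values cover only the spread among these samples, and that spread could be technical. The contrast addresses how transcripts differ between the clone edited at Epha4, which encodes a receptor tyrosine kinase for ephrins, and control-edited cells. With 1 clone, effects of the edit and traits of the clone cannot be told apart.

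Semaphorins are guidance ligands that share a sema domain. Class 3 members are secreted, classes 4 to 6 span the membrane, and class 7 is held by a lipid anchor. Plexins are their receptors and carry an intracellular GTPase-activating domain that acts on small GTPases of the Rap family, while neuropilins are co-receptors that most class 3 semaphorins need. Known first from axon guidance, the system also steers adhesion, migration and vessel growth around epithelia and carcinomas, and neuropilins bind VEGF-family growth factors as well.

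Library totals ran from 35115926 to 41775031 counts. Transcripts of the targeted gene were higher, not lower, under the knockout label. Epha4 had 97.4, 103 and 98.1 CPM (counts relative to library size, scaled by TMM factors) in the libraries labelled EphA4 knockout. It had 51.4, 59.8 and 54.0 CPM in the Control CRISPR libraries. Every direction here is therefore that of the libraries labelled EphA4 knockout, not of a loss of Epha4 transcript. Counts per gene show neither the edit itself nor the protein. EphA4 knockout replicate 3 stood apart from its group, with a chi-square per degree of freedom of 34.1 and 35.1 against its 2 partners, where the other pairs within a group had 4.63 to 9.54. Of 8 epithelial and squamous markers, Krt5 and Trp63, which mark basal squamous cells, had at most 2 counts in any library, while the simple-epithelial keratin genes Krt8 and Krt18 were abundant. The 6 tested markers went both ways: Krt8, Krt18, Cdh1 and Krt6a were higher (log2 fold changes 0.29, 0.19, 0.14 and 2.80), and Epcam and Krt14 lower (-0.61 and -1.03). Krt6a reached the filter on low counts in all 3 libraries only under the knockout label. The filter itself thus favoured its rise, and its call adds no support. Krt6a, a squamous keratin gene, averaged 1.91 CPM in the knockout-labelled libraries and 0.27 CPM in Control CRISPR, and Krt14 averaged 1.83 CPM in the knockout-labelled libraries and 3.72 CPM in Control CRISPR.

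Most members were lower in the knockout-labelled libraries, and a small set was higher. The filter on low counts left 26 of the 31 members for testing with edgeR's quasi-likelihood model, with adjustment over all 15199 tested genes. At an adjusted p under 0.05, 5 members rose, 20 fell and 1 did not pass. Over all tested genes 32.7% rose and 38.8% fell, 71.5% in all. For 25 of the 26 members the knockout-labelled and control values were fully separate, against 76.1% of all tested genes. A fall of at least 2 on the log2 scale was seen in 11 of the 26, against 12.1% of all tested genes, and a rise of at least 1 in 2 of the 26, against 10.3%. The median log2 fold change was -1.17 over the tested members and -0.04 over all tested genes. In 5 members, Plxna3, Plxna4, Sema4a, Sema4g and Sema6b, the filter was passed in all 3 libraries only in Control CRISPR. The filter itself thus favoured a fall in these, and their calls add no support. Among the 21 members above it in all 6 libraries, 5 rose and 15 fell, 6 of them by at least 2 on the log2 scale, and the median was -0.84. Of the 12487 genes above it in all 6 libraries, 36.6% rose, 36.8% fell and 5.17% fell by at least 2, with a median of 0.02. That restriction leaves out the genes that fell to few counts. Without EphA4 knockout replicate 3, 5 rose and 20 fell of 27 tested. In RNA from whole cultures, fewer cells expressing a gene and less RNA per cell cannot be told apart.

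**Figure D1:**
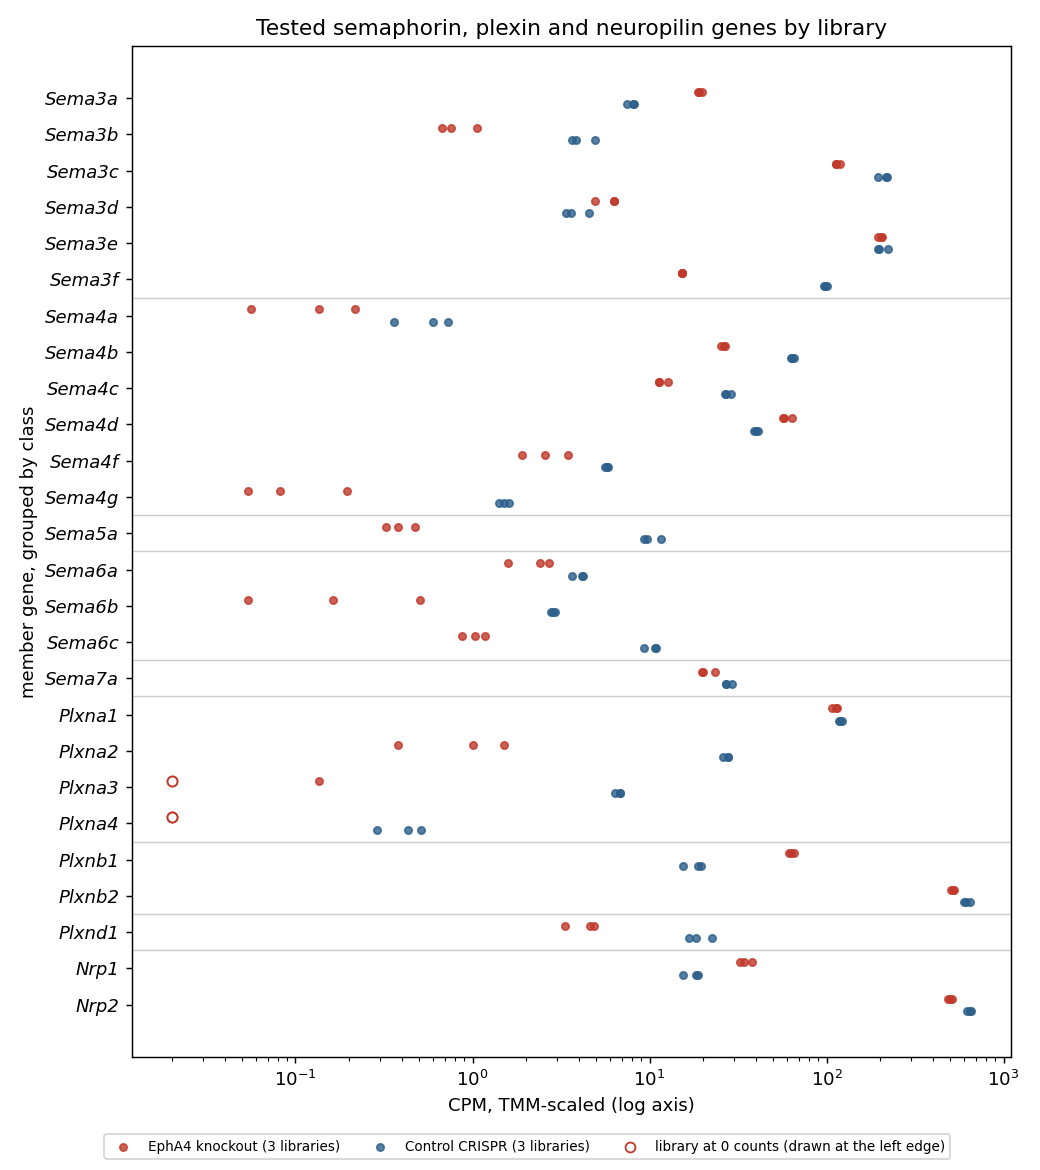
Level of each tested member in each library, in TMM-scaled CPM on a log axis, with EphA4 knockout above Control CRISPR in each row. Sema3a, Sema3d, Sema4d, Plxnb1 and Nrp1 lie to the right of their controls, Sema3e overlaps them, and the other 20 lie to the left. Open circles are libraries at 0 counts.

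Of the secreted class 3 ligands, 6 of 7 were tested, and they went both ways: 2 rose, 3 fell and 1 did not pass. These 6 were above the filter in all 6 libraries, where 36.6% of all such genes rose and 36.8% fell. Sema3f, which binds neuropilin 2, had 15.2, 15.3 and 15.3 CPM in the knockout-labelled libraries and 101, 97.6 and 96.5 CPM in Control CRISPR. The knockout-labelled values were nearly identical and every one lay far below the control range. Sema3f fell by 2.69 on the log2 scale (SE 0.05, adjusted p = 1.5e-09 in edgeR), or 6.45-fold lower. Sema3b, its neighbour on chromosome 9, was scarcer and fell by a like amount. It had 0.67, 0.76 and 1.06 CPM in the knockout-labelled libraries and 3.67, 4.93 and 3.86 CPM in Control CRISPR, a log2 difference of -2.32 (SE 0.29). Both genes are regarded as tumour suppressors in human lung cancer.

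Sema3c, a ligand of both neuropilins, had 113, 118 and 113 CPM in the knockout-labelled libraries, against 194, 220.5 and 216 CPM in Control CRISPR. The groups were far apart relative to their spread, and Sema3c fell by 0.87 on the log2 scale (SE 0.05, adjusted p = 6.8e-07 in edgeR). Sema3e, which signals through plexin D1 without a neuropilin, was the 1 tested member that did not pass. Its levels were 197, 202 and 205 CPM in the knockout-labelled libraries and 198, 222 and 196 CPM in Control CRISPR, with a log2 difference of -0.03 (SE 0.05, adjusted p = 0.62 in edgeR). The ranges overlapped, and the estimate is precise at this depth.

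Sema3a, the classical repellent that acts through neuropilin 1 and A-type plexins, went the other way. It had 19.1, 19.8 and 18.9 CPM in the knockout-labelled libraries and 8.20, 8.04 and 7.49 CPM in Control CRISPR. All 3 knockout-labelled values exceeded every control value, and the rise was 2.44-fold (log2 fold change 1.28, SE 0.09, adjusted p = 2.7e-06 in edgeR). Sema3d, another neuropilin 1 ligand, had 6.27, 6.26 and 4.90 CPM in the knockout-labelled libraries, against 3.37, 3.60 and 4.54 CPM in Control CRISPR. It rose by a log2 difference of 0.60 (SE 0.20, adjusted p = 0.027 in edgeR). Here the lowest knockout-labelled and highest control values nearly touch, and the call was lost without EphA4 knockout replicate 1 (log2 difference 0.57, adjusted p = 0.077), EphA4 knockout replicate 2 (0.58, adjusted p = 0.071), Control CRISPR replicate 1 (0.56, adjusted p = 0.074) or Control CRISPR replicate 2 (0.59, adjusted p = 0.087). Sema3g was too scarce to test, with 0 counts in the knockout-labelled libraries and 12 over the Control CRISPR libraries, at least 3.84-fold lower when 3 counts per group are taken as the limit that 0 allows.

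The class 4 ligands, which span the membrane and mostly bind B-type plexins, were all tested, and 5 of 6 fell. Sema4a and Sema4g passed the filter only through Control CRISPR. Of the 4 above it in all 6 libraries, 3 fell and 1 rose, where 36.8% of all such genes fell. Sema4b had 26.3, 26.6 and 25.3 CPM in the knockout-labelled libraries and 65.6, 63.6 and 62.7 CPM in Control CRISPR. This is a 2.45-fold lower level, with a log2 difference of -1.29 (SE 0.05). Sema4c, a ligand of plexin B2, showed a similar fall, with 12.8, 11.2 and 11.4 CPM in the knockout-labelled libraries against 26.5, 28.7 and 26.9 CPM in Control CRISPR. Its log2 fold change was -1.22 (SE 0.08), and the exons of an antisense gene overlap it, with at most 21 counts in any library.

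Sema4d, the ligand of plexin B1 that leukocytes and carcinoma cells can shed, was the 1 class 4 gene that rose. It had 63.4, 56.9 and 57.8 CPM in the knockout-labelled libraries and 41.0, 39.8 and 38.7 CPM in Control CRISPR, a log2 difference of 0.58 (SE 0.06, adjusted p = 2.2e-05 in edgeR). The other class 4 genes were scarce. Sema4f fell by 1.12 on the log2 scale (SE 0.25), with 2.57, 3.44 and 1.91 CPM in the knockout-labelled libraries and 5.77, 5.64 and 5.85 CPM in Control CRISPR. Sema4g had 0.20, 0.05 and 0.08 CPM in the knockout-labelled libraries and 1.51, 1.61 and 1.42 CPM in Control CRISPR. Its log2 fold change of -3.74 rests on 12 counts in the knockout-labelled libraries and was -4.39 without EphA4 knockout replicate 1. Sema4a, which also acts on immune cells, had 15 counts over the knockout-labelled libraries and 63 over Control CRISPR. Its log2 fold change was -2.01 (SE 0.62, adjusted p = 0.017 in edgeR), a call lost without EphA4 knockout replicate 1 (log2 fold change -1.62, adjusted p = 0.057), Control CRISPR replicate 1 (-1.73, adjusted p = 0.072) or Control CRISPR replicate 2 (-1.94, adjusted p = 0.052).

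Classes 5 and 6 were low in Control CRISPR and lower still in the knockout-labelled libraries. Sema5a, a membrane ligand with thrombospondin repeats, had 0.48, 0.38 and 0.33 CPM in the knockout-labelled libraries, against 11.6, 9.63 and 9.26 CPM in Control CRISPR. It was 25.6-fold lower (log2 fold change -4.68, SE 0.23, adjusted p = 2.7e-07 in edgeR), the largest fall among the tested semaphorins. Its class partner Sema5b had 0 counts in all 6 libraries, which allows up to 0.0274 CPM over the knockout-labelled and 0.0263 CPM over the Control CRISPR libraries.

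Class 6 ligands are transmembrane partners of A-type plexins, and the 3 tested fell. Sema6b reached the filter in all 3 libraries only in Control CRISPR. The 2 above it in all 6 libraries both fell, where 36.8% of all such genes fell. Sema6c had 1.17, 1.03 and 0.87 CPM in the knockout-labelled libraries and 10.8, 9.29 and 10.8 CPM in Control CRISPR, and was 10.0-fold lower (log2 fold change -3.33, SE 0.20). Sema6b had 0.50, 0.05 and 0.16 CPM in the knockout-labelled libraries and 2.94, 2.78 and 2.83 CPM in Control CRISPR. The knockout-labelled values of Sema6b spread widely, and the log2 fold change of -3.55 became -4.65 without EphA4 knockout replicate 1. Sema6a fell least, by 0.84 on the log2 scale (SE 0.26, adjusted p = 0.017 in edgeR), with 1.59, 2.41 and 2.69 CPM in the knockout-labelled libraries and 3.64, 4.22 and 4.15 CPM in Control CRISPR. That call was lost without EphA4 knockout replicate 1 (log2 fold change -0.62, adjusted p = 0.058), Control CRISPR replicate 2 (-0.78, adjusted p = 0.064) or Control CRISPR replicate 3 (-0.77, adjusted p = 0.072). Sema6d was not tested, and its 2 counts in the knockout-labelled libraries against 32 in Control CRISPR give a level 15.3-fold lower (exact 95% counting interval 3.92 to 132).

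Sema7a, the lipid-anchored member that binds plexin C1 and beta 1 integrins, fell modestly. Its levels were 19.9, 20.1 and 23.3 CPM in the knockout-labelled libraries and 27.2, 29.2 and 27.2 CPM in Control CRISPR. The log2 fold change was -0.40 (SE 0.08, adjusted p = 0.0021 in edgeR), and the groups did not overlap.

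**Figure D2:**
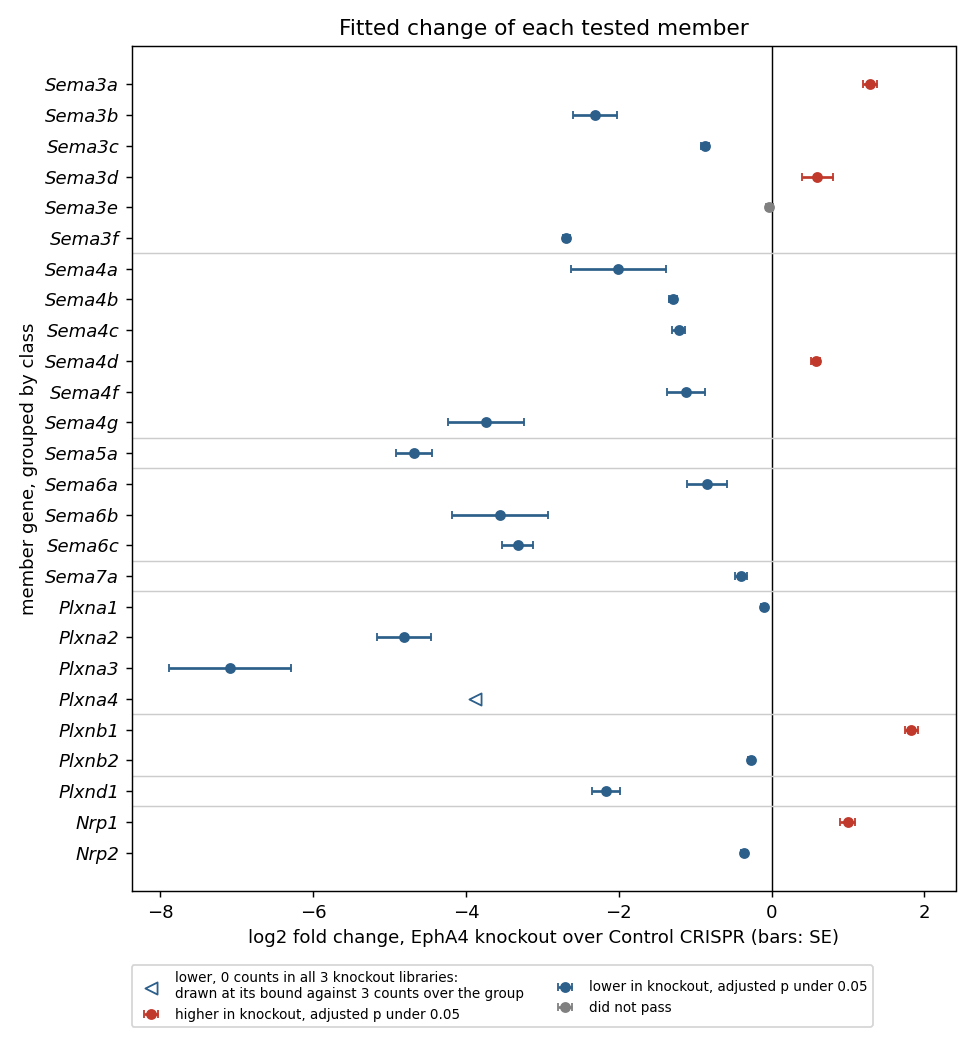
Fitted log2 fold change of each tested member, EphA4 knockout over Control CRISPR, with its SE, by class. Rises reach 1.83 for Plxnb1, falls reach -7.09 for Plxna3, and Plxna4 is drawn at the bound that 0 counts allow.

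Among the receptors, the plexins of type A separated into 1 abundant gene that barely moved and 3 scarcer ones that were far lower. Of the scarcer ones, Plxna3 and Plxna4 passed the filter only through Control CRISPR. Plxna1 had 108, 112 and 114 CPM in the knockout-labelled libraries and 122, 119.7 and 117 CPM in Control CRISPR. The log2 difference of -0.10 (SE 0.04, adjusted p = 0.039 in edgeR) was lost in 14 of 17 other fits, among them each that left out a library, where it was -0.07 to -0.04. Plxna2, a receptor of class 3 and class 6 ligands, had 1.01, 0.38 and 1.497 CPM in the knockout-labelled libraries, against 25.9, 27.8 and 27.6 CPM in Control CRISPR. It was 28.1-fold lower (log2 fold change -4.81, SE 0.36, adjusted p = 2.9e-06 in edgeR). In every knockout-labelled library Plxna2 was detected, but at a small part of the control level.

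Plxna3, a receptor for Sema3f with neuropilin 2, was close to absent. The counts were 0, 5 and 0 in the knockout-labelled libraries and 253, 239 and 266 in Control CRISPR. Only EphA4 knockout replicate 2 held any, and the log2 difference of -7.09 (SE 0.80, adjusted p = 4.5e-05 in edgeR) was -6.47 without EphA4 knockout replicate 3. Without EphA4 knockout replicate 2 the other knockout-labelled libraries held 0 counts, at least 160.6-fold lower by the limit of 3 counts. Plxna4 had 0 counts in all 3 knockout-labelled libraries and 16, 18 and 12 counts in Control CRISPR. With the same limit of 3 counts, it was at least 14.7-fold lower.

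Plxnb2, a receptor of Sema4c and Sema4g, was the most abundant plexin and fell slightly. It had 517, 505 and 526 CPM in the knockout-labelled libraries and 649.8, 616 and 601 CPM in Control CRISPR, a log2 difference of -0.27 (SE 0.04, adjusted p = 0.00027 in edgeR). Plxnb1, the Sema4d receptor that can associate with the receptor kinase Met, was the only tested plexin that rose. Its levels were 65.9, 61.6 and 63.1 CPM in the knockout-labelled libraries, against 19.5, 18.7 and 15.5 CPM in Control CRISPR. The rise was 3.55-fold (log2 fold change 1.83, SE 0.09, adjusted p = 2.2e-07 in edgeR) and the largest among the tested members. An antisense gene overlaps exons of Plxnb1, with at most 22 counts in any library.

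Plxnd1, the direct receptor of Sema3e, fell 4.50-fold (log2 fold change -2.17, SE 0.18, adjusted p = 6.3e-06 in edgeR). Levels were 4.62, 3.33 and 4.87 CPM in the knockout-labelled libraries and 18.3, 22.7 and 16.7 CPM in Control CRISPR. The 2 remaining plexins were not tested. Plxnc1, the Sema7a receptor, had 0 counts in the knockout-labelled libraries and 15 over Control CRISPR, which with that limit is at least 4.80-fold lower. Plxnb3, a receptor of Sema5a, had 5 counts over the knockout-labelled libraries and 13 over Control CRISPR.

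Promoters are shown for the 3 members with the largest fitted falls, and the 2 with the largest rises, among those with a promoter window. These are the RefSeq windows from 250 bases before to 50 after the start, in build GRCm38.p6, of Plxna2 (chr1:194619579-194619878, plus strand), Plxna3 (chrX:74328816-74329115, plus strand), Sema5a (chr15:32244563-32244862, plus strand), Plxnb1 (chr9:109095186-109095485, plus strand) and Sema3a (chr5:13396534-13396833, plus strand). Capitals mark CG dinucleotides.
Plxna2: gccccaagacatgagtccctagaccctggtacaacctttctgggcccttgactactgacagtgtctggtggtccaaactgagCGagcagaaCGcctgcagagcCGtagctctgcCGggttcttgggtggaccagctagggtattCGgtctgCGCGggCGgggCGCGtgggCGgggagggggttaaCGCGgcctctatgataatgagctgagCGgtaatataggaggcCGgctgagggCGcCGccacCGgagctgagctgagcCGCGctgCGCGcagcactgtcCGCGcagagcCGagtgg
Plxna3: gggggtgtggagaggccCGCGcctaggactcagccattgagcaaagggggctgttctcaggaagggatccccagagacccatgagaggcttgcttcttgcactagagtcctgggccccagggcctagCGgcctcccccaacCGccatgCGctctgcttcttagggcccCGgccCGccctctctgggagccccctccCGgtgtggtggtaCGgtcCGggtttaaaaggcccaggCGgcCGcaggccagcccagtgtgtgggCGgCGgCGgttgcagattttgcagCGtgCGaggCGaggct
Sema5a: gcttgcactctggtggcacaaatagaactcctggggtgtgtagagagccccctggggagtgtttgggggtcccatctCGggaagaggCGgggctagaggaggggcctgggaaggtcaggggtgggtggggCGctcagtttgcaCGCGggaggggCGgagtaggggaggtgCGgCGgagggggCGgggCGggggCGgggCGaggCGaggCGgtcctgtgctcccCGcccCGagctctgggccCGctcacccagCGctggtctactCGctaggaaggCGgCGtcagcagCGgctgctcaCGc
Plxnb1: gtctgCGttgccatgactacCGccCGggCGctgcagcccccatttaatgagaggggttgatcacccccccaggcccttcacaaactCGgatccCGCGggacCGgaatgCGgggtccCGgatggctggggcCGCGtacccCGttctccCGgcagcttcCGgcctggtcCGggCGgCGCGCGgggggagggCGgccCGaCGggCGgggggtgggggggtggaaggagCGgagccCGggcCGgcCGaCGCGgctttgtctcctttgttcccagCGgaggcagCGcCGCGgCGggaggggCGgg
Sema3a: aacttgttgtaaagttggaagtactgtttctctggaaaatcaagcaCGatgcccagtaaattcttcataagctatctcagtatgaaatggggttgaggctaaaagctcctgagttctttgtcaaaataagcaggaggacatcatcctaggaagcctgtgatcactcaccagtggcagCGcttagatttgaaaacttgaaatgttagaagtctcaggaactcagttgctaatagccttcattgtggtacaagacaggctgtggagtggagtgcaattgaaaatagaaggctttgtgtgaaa

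The windows of the 3 falling genes held 25 (Plxna2), 18 (Plxna3) and 23 (Sema5a) CG dinucleotides. Of the risers, Plxnb1 held 36 and Sema3a 2, the highest and the lowest of these 5. A window was found for 26 of the 31 members, 37 windows in all because some genes have several starts. Their median was 15 CG dinucleotides, against 7 over all 32851 windows of the table. On either strand, the letters GGGCGG stood in 27 of the 37 windows and in 35.7% of all windows, and CAGGTG in 5 of 37 and in 20.2%. CCAAT stood in 7 of 37 and in 37.4%, TGANTCA in 3 of 37 and in 7.81%, and TATAAA in 0 of 37 and in 13.6%. These are matches of letters in a short window and describe base content, not binding, and none of the motifs contains another. The members without a window were Plxna1, Plxna4, Sema3b, Sema3f and Sema6a.

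The neuropilins moved in opposite directions. Nrp1, co-receptor of Sema3a and of VEGF-A, had 32.4, 37.7 and 34.3 CPM in the knockout-labelled libraries and 18.9, 18.2 and 15.4 CPM in Control CRISPR. It rose 1.99-fold (log2 fold change 0.99, SE 0.10, adjusted p = 1.7e-05 in edgeR), with no overlap between the groups. Nrp2, co-receptor of Sema3f and of VEGF-C, was far more abundant. Its levels were 484, 510.2 and 496 CPM in the knockout-labelled libraries and 647, 654 and 619 CPM in Control CRISPR, and it fell by 0.36 on the log2 scale (SE 0.04, adjusted p = 2.8e-05 in edgeR).

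To compare levels between genes, CPM was divided by the length of the longest annotated transcript in kilobases. The summed semaphorin level was 89.8 ± 0.27 CPM per kilobase in the knockout-labelled libraries and 147 ± 4.08 in Control CRISPR (SD, n = 3 each). The plexin sum was 99.9 ± 1.95 in the knockout-labelled libraries and 117 ± 4.31 CPM per kilobase in Control CRISPR, and the neuropilin sum was 83.4 ± 2.71 in the knockout-labelled libraries and 99.96 ± 3.22 CPM per kilobase in Control CRISPR (SD, n = 3 each). Within the semaphorins the share of class 3 was close in both, at 65.9% ± 0.96 in the knockout-labelled libraries and 68.2% ± 0.87 in Control CRISPR (SD, n = 3 each). Inside that class the makeup shifted. Sema3e held 32.7% ± 0.64 of the semaphorin level in the knockout-labelled libraries and 20.3% ± 0.85 in Control CRISPR, while Sema3f held 5.01% ± 0.02 and Sema3c 23.3% ± 0.58 in the knockout-labelled libraries, against 19.7% ± 0.86 and 26.0% ± 1.32 in Control CRISPR. The level of Sema3e itself was close in both, at 29.35 ± 0.63 CPM per kilobase in the knockout-labelled libraries and 29.94 ± 2.07 in Control CRISPR. Its larger share thus went with the lower semaphorin sum. Sema4d took 14.8% ± 0.92 of the semaphorin level in the knockout-labelled libraries and 6.04% ± 0.26 in Control CRISPR.

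Plxnb2 dominated the plexins in both groups, with 79.6% ± 0.10 of their level in the knockout-labelled libraries and 81.6% ± 0.59 in Control CRISPR (SD, n = 3 each). Below it, Plxnb1 held 7.36% ± 0.24 in the knockout-labelled libraries and 1.76% ± 0.16 in Control CRISPR. Plxna2 held 0.09% ± 0.05 in the knockout-labelled libraries, against 2.10% ± 0.15 in Control CRISPR, and Plxnd1 0.62% ± 0.11 against 2.37% ± 0.37. Per kilobase, Nrp2 exceeded Nrp1 by 8.10, 7.33 and 7.85 times in the knockout-labelled libraries and by 18.6, 19.5 and 21.8 times in Control CRISPR. These shares move with the choice of transcript length, and no test was made of them.

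**Figure D3:**
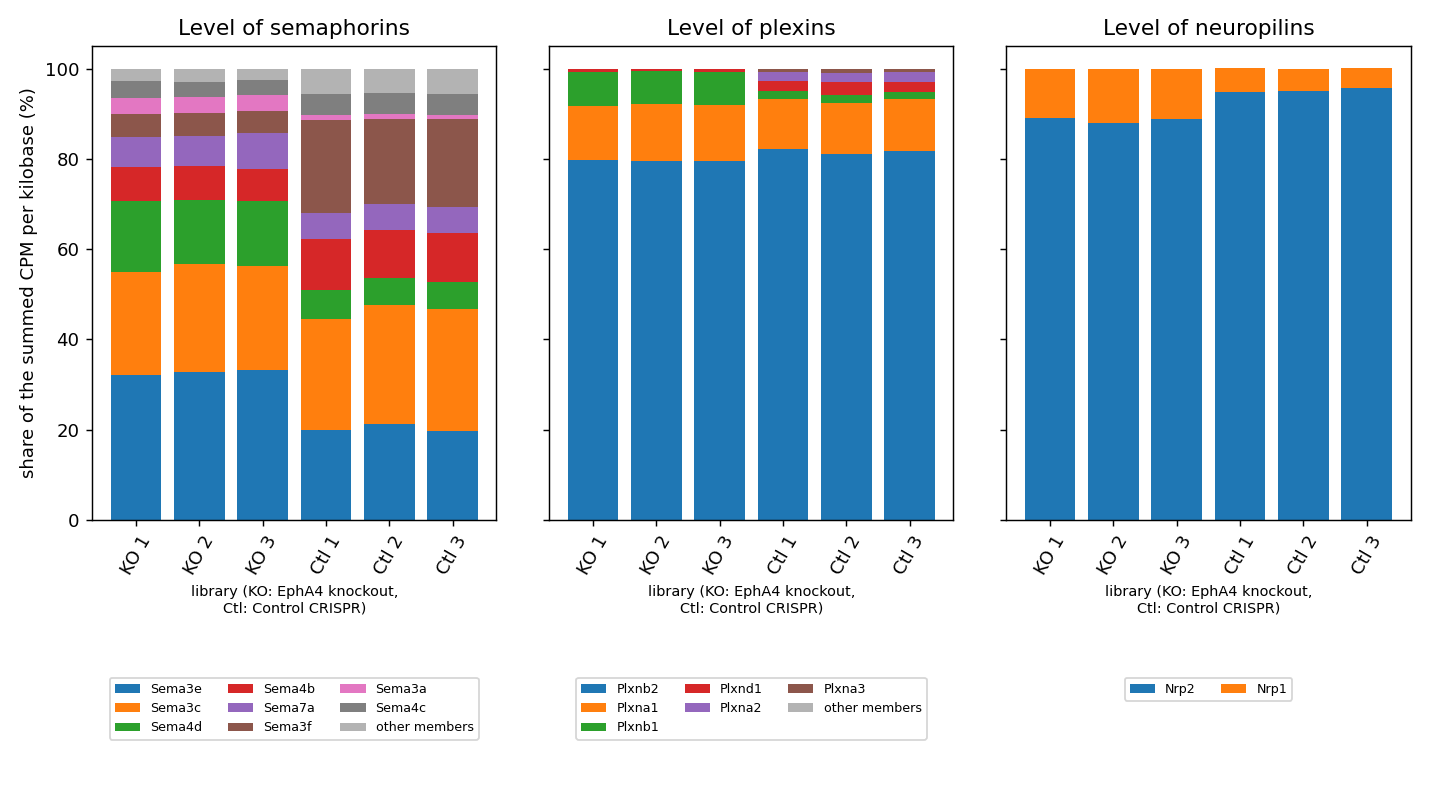
Share of each member in the summed CPM per kilobase of its family, in percent, by library. Sema3e, Sema4d, Plxnb1 and Nrp1 take larger shares in the EphA4 knockout libraries, and Sema3f, Plxna2 and Plxnd1 smaller ones. The level of Sema3e itself was close in both groups.

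Set beside each other, known ligands and receptors did not move as pairs throughout. Sema4d and its receptor gene Plxnb1 both rose, with log2 fold changes of 0.58 and 1.83, and so did Sema3a and its co-receptor gene Nrp1, with 1.28 and 0.99. Sema3e was level at -0.03 while its receptor gene Plxnd1 fell by 2.17 on the log2 scale. Sema3f fell by 2.69, with Nrp2 at -0.36 and Plxna3 at -7.09. The Plxna3 value rests on 5 counts in the knockout-labelled libraries and a filter passed only through Control CRISPR. Sema7a kept a log2 fold change of -0.40 in cells with few or no Plxnc1 counts in either group.

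Of 65 further genes of the pathway, 58 were tested, and 17 rose, 33 fell and 8 did not pass, where 32.7% of all tested genes rose and 38.8% fell. Robo1, Vegfd and Dpysl3 reached the filter in all 3 libraries only in Control CRISPR, so the filter itself favoured their falls, and their calls add no support. Among the 54 genes above the filter in all 6 libraries 17 rose and 30 fell, where 36.6% of all such genes rose and 36.8% fell. Other co-receptors had 3 higher, 4 lower and 2 that did not pass of 9. Flt4, a VEGF receptor that pairs with neuropilin 2, had 61.4, 60.6 and 61.6 CPM in the knockout-labelled libraries and 20.2, 20.8 and 18.9 CPM in Control CRISPR, a 3.07-fold rise. Met, the hepatocyte growth factor receptor, rose by a log2 difference of 0.76 (SE 0.06). L1cam, an adhesion molecule that joins neuropilin 1, fell by 2.53 on the log2 scale (SE 0.07). Robo1, a Slit receptor, fell by 5.91 (SE 0.41).

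VEGF-family ligands of neuropilins were lower in 4 of 5, or in 3 of the 4 above the filter in all 6 libraries, where 36.8% of all such genes fell. Pgf fell by 3.62 on the log2 scale (SE 0.30), and Vegfd fell by 5.27 (SE 0.67), with 4 counts left over the knockout-labelled libraries and 175 over Control CRISPR. The proteases that cleave or shed semaphorins had 2 higher, 3 lower and 2 that did not pass of 7. Furin, which processes class 3 ligands, rose by a log2 difference of 0.29 (SE 0.04) and the related convertase gene Pcsk6 by 0.83 (SE 0.05). The convertase gene Pcsk5 fell by 2.99 on the log2 scale (SE 0.40), and Mmp14, which can shed Sema4d, fell by 0.75 (SE 0.03).

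Among effectors that act downstream of plexins, 13 genes of the MICAL and CRMP families and their kinases were tested. Of these, 4 were higher, 8 lower and 1 did not pass. Dpysl3 reached the filter in all 3 libraries only in Control CRISPR. Of the 12 above the filter in all 6 libraries, 4 rose and 7 fell. Of all genes above it in all 6 libraries, 36.6% rose and 36.8% fell. Dpysl3 fell by 9.71 on the log2 scale (SE 0.29), with 0.08, 0 and 0.49 CPM in the knockout-labelled libraries and 153, 171 and 169 CPM in Control CRISPR. Crmp1, another collapsin response mediator, fell by 5.69 (SE 0.19). Its relative Dpysl5 rose 2.28-fold (log2 fold change 1.19, SE 0.04), and Cdk5r1, the activator of the kinase CDK5, rose by a log2 difference of 1.57 (SE 0.29). Small GTPases and their regulators had 8 higher, 14 lower and 2 that did not pass of 24, all of them above the filter in all 6 libraries. Farp2, an exchange factor for Rac, rose by 1.59 on the log2 scale (SE 0.14), and Tiam1, another, rose by 1.00 (SE 0.08). Sh3bp1, a GTPase-activating protein, fell by 3.61 (SE 0.37).

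**Figure D4:**
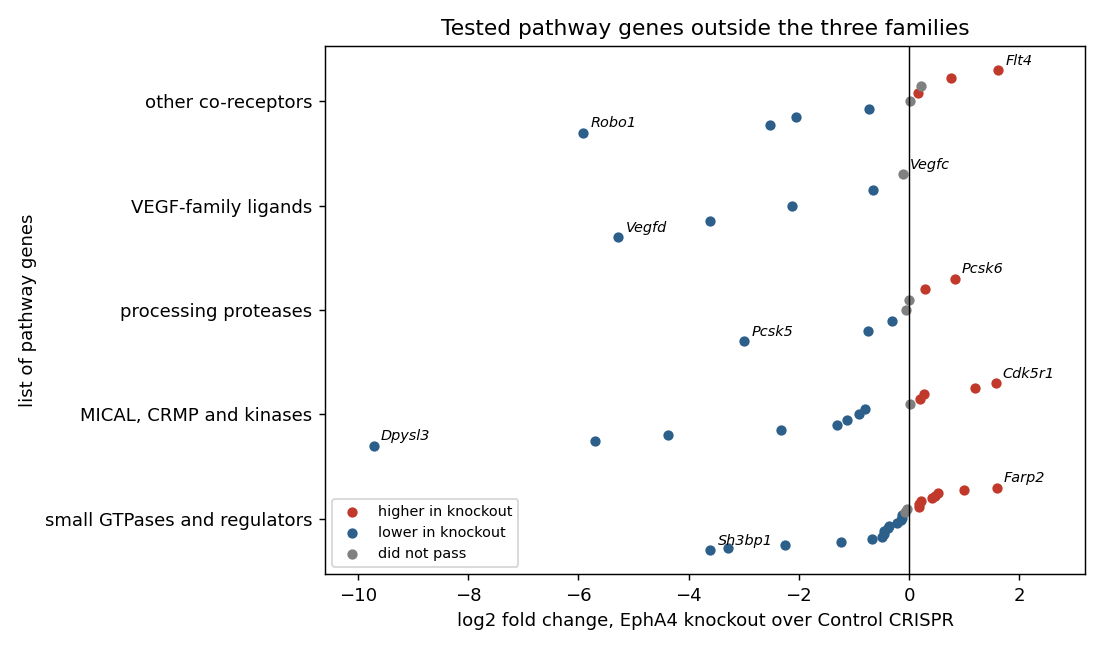
Fitted log2 fold changes of the 58 tested pathway genes outside the families, by list, EphA4 knockout over Control CRISPR, with the highest and lowest gene of each list named. Changes run from -9.71 for Dpysl3 to 1.62 for Flt4.

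Markers of other cell types were measured beside these groups. Of 8 fibroblast markers, Pdgfra was the only one above the filter in all 6 libraries, and it fell by 2.59 on the log2 scale (SE 0.17). Col1a1, Col3a1, Dcn and Pdgfrb passed the filter only through Control CRISPR, so the filter itself favoured their falls, and their calls add no support. The summed level of the 8 was 1.93 to 2.03 CPM in the knockout-labelled libraries and 48.3 to 51.4 CPM in Control CRISPR. Lum was at 0 in all libraries, and Col1a2 had 8, 11 and 10 counts in the knockout-labelled libraries and 4, 0 and 1 in Control CRISPR. Of 8 neuron and Schwann cell markers 3 were tested, and Tubb3 and Map2 fell, with a summed level of 7.87 to 8.67 CPM in the knockout-labelled libraries and 69.8 to 73.2 CPM in Control CRISPR, while Rbfox3 and S100b were at 0. Leukocyte markers summed to 11.8 to 13.4 CPM in the knockout-labelled libraries and 22.1 to 24.8 CPM in Control CRISPR. Of the 2 tested, Cd68 was lower, averaging 4.24 CPM in the knockout-labelled libraries and 18.2 CPM in Control CRISPR. Csf1r was higher, at 7.75 CPM in the knockout-labelled libraries and 4.72 CPM in Control CRISPR. Ptprc was not tested, and had 41 counts over the knockout-labelled libraries and 14 over Control CRISPR. Cd3e, Itgam and Adgre1 were at 0. Endothelial markers summed to 0.67 to 1.17 CPM in the knockout-labelled libraries and 1.46 to 1.81 CPM in Control CRISPR, with Emcn and Cldn5 at 0 and the 1 tested marker not passing. The part of these cell types in the falls of the semaphorins and plexins was not tested.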

How the data were processed

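Polyadenylated RNA of 6 MOC2 samples was measured, 3 labelled EphA4 knockout and 3 Control CRISPR. The authors deposited raw counts per gene symbol for 55418 symbols, without normalization. The submitters' processing notes name STAR and the build GRCm39, without versions; for the counter, strand setting and annotation, none is given in the sources used. All symbols match GENCODE M21, which supplied chromosomes and lengths. Promoters came from RefSeq (GRCm38.p6). No coordinates were taken from the counts.

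Genes were filtered with filterByExpr (minimum count 10, keeping 15199 of 28042 with any count), scaled by TMM and tested with edgeR 4.0.16 (glmQLFit, glmQLFTest, group only; two-sided p) under R 4.3.3. Benjamini-Hochberg adjustment ran over all tested genes at 0.05. Each SE was obtained by dividing the size of the log2 difference by the root of its F statistic. One count equals 0.0240 to 0.0283 CPM. A floor of 3 counts over a group bounds folds against 0; floors and intervals cover counting error only.

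The members and lists were chosen with earlier results of these data known. Each member is accounted for, and those averaging at least 1 CPM in a group have values per library; of each pathway list, the 2 largest rises and falls are named, except 1 gene that is not reported here. Alternatives were leaving out each library, a replicate block, no filter, 5 CPM in 3 libraries, scaling by RLE, by upper quartile or by library size, omission of the 20 highest genes, limma-voom (limma 3.58.1), DESeq2 1.42.0, a threshold of 0.01, and glmTreat against a fold of 1.5. Scripts were tested on simulated data. Figures used matplotlib 3.10.9.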

Additional observations from a re-analysis of the deposited data

How the results depend on the processing

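Of the 25 members that passed, 17 kept their call and direction under all alternatives run for them (up to 17), and none changed direction. Among these 17 are Plxna3, Plxna4, Sema4g and Sema6b, which reached the filter in all 3 libraries only in Control CRISPR. Their calls add no support here either. How many of all tested genes kept their calls was not counted. Sema3e did not pass under any alternative, and its sign differed under 6. The other 8, Nrp2, Plxna1, Plxnb2, Sema3d, Sema4a, Sema4d, Sema6a and Sema7a, lost a call under at least 1 alternative, 4 of them only under a test against a fold of 1.5. That test (glmTreat) called 3 members higher (1 semaphorin), 4 plexins and neuropilins lower and 7 pathway genes higher, and, among all tested genes, 2006 higher and 3467 lower; it asks for a larger change. The filter of 5 CPM in 3 libraries left 19 members to test and called 4 members higher and 13 lower, 8 of the latter semaphorins. Of all 10519 genes that it left, 4298 were called higher and 4383 lower. Leaving out each library in turn gave 4 to 5 members higher and 17 to 20 lower, 2 to 3 semaphorins higher and 11 to 14 lower, 2 plexins and neuropilins higher and 6 lower, 14 to 17 pathway genes higher and 30 to 31 lower, and 4675 to 5309 genes higher and 5330 to 6029 lower over the whole table.

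No label says that the sample numbers pair the samples. Deviations of same-numbered libraries correlated at -0.01, 0.05 and 0.01 over tested genes, and not every sample correlated best with its own number. With 3 libraries a group, such correlations cannot exclude pairing. With the replicate block 4 members were higher and 18 lower, and 10339 genes passed in all. No filter on low counts gave 11227 calls among 28042 genes, with Sema6d called lower (adjusted p = 0.037).

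Shares depend on the length used, by construction. For class 3, coding length, no length and summed exon length (the last chosen after seeing the data) gave 76.6%, 74.0% and 65.8% in the knockout-labelled libraries and 75.0%, 73.1% and 66.9% in Control CRISPR. For Plxnb2 they gave 75.3%, 74.1% and 77.3% in the knockout-labelled libraries and 77.2%, 76.5% and 79.97% in Control CRISPR. For Nrp2 they gave 92.8%, 93.5% and 92.2% in the knockout-labelled libraries and 97.1%, 97.3% and 96.8% in Control CRISPR. Leaving out a library gave 65.5% to 66.4% for class 3, 79.5% to 79.6% for Plxnb2 and 88.4% to 88.9% for Nrp2 in the knockout-labelled libraries, and 67.8% to 68.7%, 81.4% to 81.9% and 95.0% to 95.4% in Control CRISPR. Depth limits members under about 20 counts a library, such as Sema4a, Plxna4, Sema3g and Plxnc1.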

Other observations

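Members that lie near each other on a chromosome did not all move together. Sema3d, Sema3a, Sema3e and Sema3c follow one another on chromosome 5, with log2 fold changes of 0.60, 1.28, -0.03 and -0.87. No protein-coding gene lies between Sema3d and Sema3a in the annotation, and 1, Speer3, between Sema3a and Sema3e, which rose by 0.54 on the log2 scale (SE 0.20, adjusted p = 0.039 in edgeR). Of 16 protein-coding genes between Sema3e and Sema3c only Cacna2d1, a calcium channel subunit, was tested, and it fell by 2.61 on the log2 scale (SE 0.52, adjusted p = 0.0017 in edgeR).

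On chromosome 9, Sema3f and Sema3b both fell, and so did both tested genes of the 3 protein-coding genes between them. Over all tested genes 38.8% fell. Slc38a3, an amino acid transporter, fell by 4.25 on the log2 scale (SE 1.02, adjusted p = 0.0048 in edgeR), and Gnai2, an inhibitory G protein subunit, fell by 0.55 (SE 0.04, adjusted p = 2.1e-06 in edgeR). These genes were named for their position, after their values were seen.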
